A study of Mus musculus with 6 samples.

Results

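Bone morphogenetic protein (BMP) genes were examined in the colon of mice with chemically induced colitis. They were chosen by gene symbol, with earlier results of these data known, as a fixed list of 10. These were the ligands Bmp2, Bmp4, Bmp5 and Bmp7, the antagonist Grem1, the receptors Bmpr1a and Bmpr2, and the target genes Id1, Id2 and Id3. All 10 were among the 27202 genes listed, and all 10 were among the 16246 with a mean of at least 10 normalized counts over the 6 libraries, which were the genes tested.

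RNA of colonic tissue was sequenced from 3 Nedd4l fl/fl Villin Cre mice (libraries cKO1, cKO2 and cKO3) and from 3 of their Nedd4l fl/fl littermates (libraries WT1, WT2 and WT3), to compare expression with and without Nedd4l, which encodes an E3 ubiquitin ligase, in intestinal epithelial cells (IECs). The floxed and the Cre mice were of C57BL/6J background, and both genotypes carried the floxed allele. Villin Cre is active in IECs and deleted Nedd4l there constitutively, so the other cells of the tissue kept the gene. All mice were 8 to 10 weeks old and had received 2% dextran sulfate sodium (DSS), which damages the lining of the colon, in drinking water for 7 days. No untreated mice were analysed here, so the values do not show the effect of DSS.

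BMP ligands are secreted dimers of the TGF-β superfamily that bring together type I receptors such as BMPR1A and the type II receptor BMPR2, both serine/threonine kinases. The activated receptors phosphorylate SMAD1, SMAD5 and SMAD9, which enter the nucleus with SMAD4, and the ID genes are among their best known direct targets. In the colon, BMP activity is known to be highest in the differentiated cells toward the luminal surface, while antagonists such as gremlin 1, made by mesenchymal cells around and beneath the crypt base, keep it low where the stem cells lie.

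The values were normalized counts, for which the reads of each gene had been scaled by 1 size factor for each library. Every value was, within a tolerance of 0.001, a whole multiple of its library's smallest value, in units of which the libraries summed to 14914367 to 17547270. Nedd4l itself was 476, 942 and 566 in cKO1, cKO2 and cKO3 and 1241, 1271 and 1266 in WT1, WT2 and WT3, a log2 fold change of −0.99 (SE 0.24, adjusted p = 0.225 by limma). The log2 fold change was −1.28 without cKO2 (adjusted p = 0.0131) and −1.09 with libraries weighted by their fit to the model (adjusted p = 0.0212), and it then passed the threshold. Without WT2 the adjusted p was 0.512. All 3 cKO libraries lay below all 3 WT libraries, and cKO2 lay nearest to them. Over all genes cKO1 stood farthest apart, with a mean r of 0.963 with the other cKO libraries and of 0.948 with the WT libraries. cKO2 correlated more closely with the WT libraries (mean r = 0.977) than with the other cKO libraries (mean r = 0.966). The cause was not tested. Where leaving out either library moved a log2 fold change of a member by over 1.5 times, the value without it is given. None of the 10 epithelial markers (Epcam, Cdh1, Krt8, Krt18, Krt19, Krt20, Vil1, Cdx2, Lgals4 and Cldn7) was at 0, and their summed count was 235477 to 272668 in the 6 libraries. Xist was at 14080 to 20060 in all 6 libraries.

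No BMP gene passed the test over all genes, and the antagonist, 1 ligand and 1 receptor had the clearest differences. Grem1 had 2.73-fold, Bmp7 1.59-fold and Bmpr2 1.34-fold the WT level in the cKO libraries on the log2 scale, and each of these was above all WT libraries in all 3 cKO libraries. By the same measure the ID genes lay between 0.905-fold and 1.08-fold the WT level, and their groups overlapped. By limma on log2(normalized count + 1), with Benjamini-Hochberg adjustment over all genes tested, 0 of 10 members had an adjusted p under 0.05, and so did 0% of all genes tested in either direction. At an unadjusted p under 0.05, 3 of 10 members were higher, against 6.91% of all genes tested, and 0 were lower, against 7.08%. The same 3 were the members whose groups did not overlap in the upward direction, against 10.5% of all genes tested, and 0 did not overlap in the downward direction, against 10.9% (in either direction, 3 of 10 against 21.4%). The members were chosen with earlier results of these data known, so these shares are a description and not a test of the list. The count of 3 at an unadjusted p was 1 without cKO3, 1 without WT2 and 1 without WT3, and the 1 left was Bmpr2. The median log2 fold change was 0.24 over the 10 members and 0.0013 over all genes tested. With 3 libraries against 3, the exact permutation test of a single gene cannot give a two-sided p below 0.10.

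**Figure D1:**
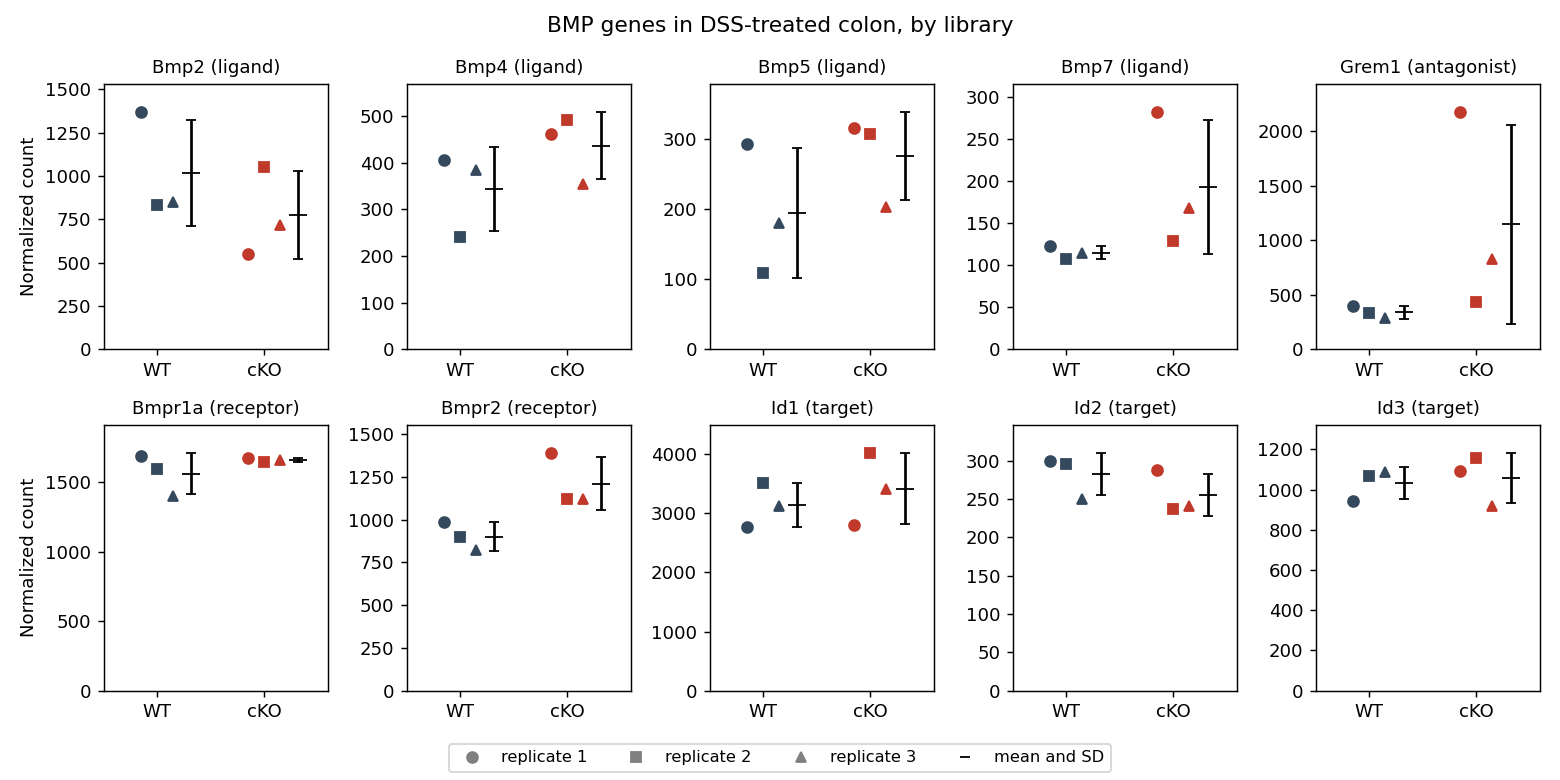
Normalized counts of the 10 BMP genes in each WT (blue) and cKO (red) library, with the mean and SD of each genotype (n = 3) beside the points and a separate vertical axis from 0 for each gene. The 3 cKO points of Bmp7, Grem1 and Bmpr2 lie above the 3 WT points, and the points of the other 7 genes overlap between the genotypes.

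Grem1 had the largest log2 fold change of the members. Gremlin 1 is a secreted cystine knot protein that binds BMP2, BMP4 and BMP7 and keeps them from their receptors. Its gene (ENSMUSG00000074934) lies on the minus strand of chromosome 2 at 113746164 to 113758646 as the table lists it, in coordinates of GRCm38. Its normalized count was 2174, 430.1 and 830.3 in cKO1, cKO2 and cKO3, and 401, 334 and 285 in WT1, WT2 and WT3. The cKO libraries differed among themselves more than the genotypes did, since cKO1 was far above the rest and cKO2 was just above the highest WT library. The mean was 1145 ± 914 (SD, n = 3) in cKO and 340 ± 58.4 (SD, n = 3) in WT, for a log2 fold change of 1.45 (SE 0.58, 95% confidence interval 0.0066 to 2.89, unadjusted p = 0.0493, adjusted p = 0.356 by limma). The log2 fold change was 0.83 without cKO1 and 1.99 without cKO2, with adjusted p-values of 0.387 and 0.134.

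The upstream sequence of Grem1 is shown with that of Bmp4, because these are the antagonist with the largest fold change and a ligand it binds. Both are the 250 bases before the start of the gene in RefSeq, read on the minus strand of GRCm38.p6, for Grem1 at chr2:113758649-113758898 and for Bmp4 at chr14:46390670-46390919. Capitals mark GGCGCC, a GC-rich motif bound by BMP-activated SMADs, which reads the same on both strands.
Grem1: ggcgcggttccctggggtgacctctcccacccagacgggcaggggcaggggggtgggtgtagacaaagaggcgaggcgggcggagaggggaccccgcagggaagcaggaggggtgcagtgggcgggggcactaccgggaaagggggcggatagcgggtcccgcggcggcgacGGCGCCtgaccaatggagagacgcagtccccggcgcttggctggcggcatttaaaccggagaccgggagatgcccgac
Bmp4: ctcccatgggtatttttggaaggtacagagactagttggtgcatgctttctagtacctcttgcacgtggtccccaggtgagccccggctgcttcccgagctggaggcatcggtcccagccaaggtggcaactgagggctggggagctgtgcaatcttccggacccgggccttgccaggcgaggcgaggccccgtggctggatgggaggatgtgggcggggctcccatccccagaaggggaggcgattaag
The Grem1 window held the motif 1 time, 78 bases before the start, and the Bmp4 window held it 0 times. Of 32851 promoters in the table, 9.59% held it. Bases G and C made up 72% of the Grem1 window and 63.2% of the Bmp4 window, against a median of 52.4% over all promoters. Promoters of 7 of the 10 members were matched by symbol. The windows of Bmpr1a, Bmpr2 and Id2 also held the motif 1 time, and those of Bmp5 and Id3 did not hold these letters. Of the 250 bases of the window, 141 lay in GENCODE exons for Bmpr1a, 250 for Bmpr2, 161 for Id2 and 250 for Id3, so that by that annotation these windows are not all upstream sequence, whereas those of Grem1 and Bmp4 held 0 exonic bases. Bmp2, Bmp7 and Id1 were not matched.

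Of the ligands, Bmp7 was the only one whose genotypes did not overlap. BMP7 is a ligand of the same subgroup as BMP5. Bmp7 (ENSMUSG00000008999, chromosome 2, 172868012 to 172940321, minus strand) was at 282, 128 and 168 in cKO1, cKO2 and cKO3 and at 122, 107 and 115 in WT1, WT2 and WT3. As for Grem1, cKO1 was highest and cKO2 was close to the WT libraries, which lay near each other. Mean Bmp7 was 193 ± 79.7 in cKO and 115 ± 7.70 in WT (SD, n = 3 each), with a log2 fold change of 0.67 (SE 0.28, 95% confidence interval 0.026 to 1.31, unadjusted p = 0.0431, adjusted p = 0.345 by limma). Without cKO1 the log2 fold change was 0.35, and without cKO2 it was 0.92.

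Bmp2, which epithelial cells of the colon surface make, had the opposite sign. Bmp2 (ENSMUSG00000027358, chromosome 2, 133552159 to 133562885, plus strand) was at 552, 1054 and 718 in cKO1, cKO2 and cKO3, and at 1368, 830.4 and 849 in WT1, WT2 and WT3. The genotypes overlapped, since cKO2 was above WT2 and WT3, while cKO1 and cKO3 were the lowest libraries. The log2 fold change was −0.40 (SE 0.30, 95% confidence interval −1.12 to 0.32, adjusted p = 0.559 by limma). Without cKO2 it was −0.65 (adjusted p = 0.269), without cKO1 it was −0.18, and without WT1, the highest library, it was −0.17. Among the cKO libraries the order of Bmp2 was that of Nedd4l, with cKO2 highest and cKO1 lowest, and the reverse of that of Grem1 and Bmp7.

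Bmp4 and Bmp5, ligands known from the mesenchyme beneath the epithelium, had positive log2 fold changes within the spread between libraries. Bmp4 (ENSMUSG00000021835, chromosome 14, 46383520 to 46390669, minus strand) was at 462, 492 and 355 in cKO1, cKO2 and cKO3 and at 406, 241 and 384 in WT1, WT2 and WT3. WT2 stood apart at the low end, and cKO3 lay below WT1 and WT3. The log2 fold change was 0.37 (SE 0.22, 95% confidence interval −0.15 to 0.88, adjusted p = 0.475 by limma), and 0.13 without WT2. Bmp5 (ENSMUSG00000032179, chromosome 9, 75775364 to 75900310, plus strand) was at 315, 307 and 203 in cKO1, cKO2 and cKO3 and at 292, 109 and 179.7 in WT1, WT2 and WT3. Again WT2 was lowest, and WT1 was above cKO3. Bmp5 had a log2 fold change of 0.59 (SE 0.37, 95% confidence interval −0.29 to 1.47, adjusted p = 0.493 by limma), which was 0.24 without WT2 and 0.94 without WT1. Bmp5 shares 1878 exonic bases with the antisense gene Gm26903, and since the sources used here do not state whether counting used strand, their reads cannot be told apart. Gm26903 was listed at a mean of 5.26 normalized counts.

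To compare levels between genes, counts were divided by the gene length in kb that the table gives. Per kb, Bmp2 was the most abundant ligand in WT, at 286 ± 85.8 (SD, n = 3), followed by Bmp4 at 153 ± 39.9, Bmp5 at 48.1 ± 23.0 and Bmp7 at 28.6 ± 1.92. The ranges of Bmp2 and Bmp4 did not overlap in WT, while those of Bmp5 and Bmp7 did. In cKO the levels of Bmp2 (218 ± 71.9) and Bmp4 (194 ± 32.1) overlapped. As shares of the summed level of the 4 ligands per kb, Bmp2 made up 40.9% ± 9.12 in cKO and 55.4% ± 5.23 in WT, Bmp4 36.8% ± 3.09 and 29.9% ± 4.80, Bmp5 12.9% ± 2.19 and 8.99% ± 2.02, and Bmp7 9.38% ± 4.33 and 5.74% ± 1.11 (SD, n = 3 each). The share of Bmp2 was lower in each cKO library (30.5%, 47.5% and 44.7%) than in each WT library (57.6%, 59.2% and 49.4%). That of Bmp5 was higher in each cKO library (15.4%, 12.2% and 11.2%) than in each WT library (10.9%, 6.86% and 9.25%). The shares of Bmp4 and Bmp7 overlapped between the genotypes. Shares of a sum are tied to each other, so a lower share of Bmp2 is also a higher share of the other ligands. Reads of the bases that Bmp5 shares with Gm26903 cannot be told apart. This limit holds for the Bmp5 level per kb and for every sum that includes it. The summed level itself was 528 ± 87.3 per kb in cKO and 515 ± 140 per kb in WT (SD, n = 3), and the genotypes overlapped.

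Grem1 was set against the 4 ligands, Bmp5 among them, as the log2 ratio of Grem1 per kb to the summed ligands per kb. This ratio was 0.041, −2.59 and −1.18 in cKO1, cKO2 and cKO3 and −2.79, −2.29 and −2.82 in WT1, WT2 and WT3. In cKO1 Grem1 was thus about as abundant per kb as the 4 ligands together, whereas cKO2 lay within the range of the WT libraries. The mean difference between the genotypes was 1.39, on the log2 scale, and it was 0.75 without cKO1 and 2.07 without cKO2. No test was made on this ratio.

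**Figure D2:**
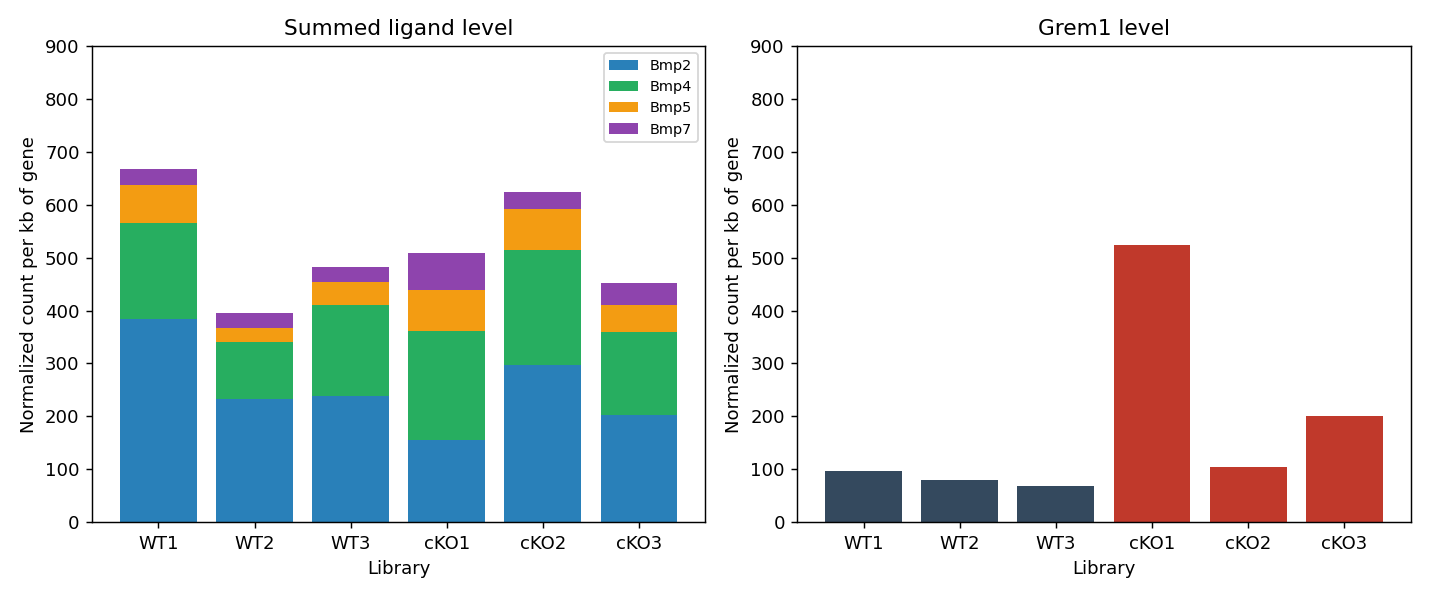
Left, level of the 4 BMP ligands in each library, stacked, and right, level of Grem1 in the same libraries, both as normalized counts per kb of gene on the same scale. The stacked ligands reach 395 to 668 with no separation of the genotypes, while Grem1 reaches 524 in cKO1, 104 in cKO2 and 200.2 in cKO3, against 68.6 to 96.7 in the WT libraries.

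Of the receptors, Bmpr2 differed between the genotypes with the smallest p of the members, while Bmpr1a stayed close to the WT level. BMPR2 is the type II receptor that phosphorylates the type I receptor. Bmpr2 (ENSMUSG00000067336, chromosome 1, 59763400 to 59879014, plus strand) was at 1387, 1119.9 and 1121 in cKO1, cKO2 and cKO3 and at 984, 899.6 and 819.8 in WT1, WT2 and WT3. Every cKO library was above every WT library, and cKO1 was again highest. Mean Bmpr2 was 1209 ± 154 in cKO and 901 ± 81.9 in WT (SD, n = 3 each), with a log2 fold change of 0.42 (SE 0.12, 95% confidence interval 0.16 to 0.69, unadjusted p = 0.00651, adjusted p = 0.247 by limma). Over the 14 alternatives the log2 fold change ran from 0.32 without cKO1 to 0.49 without WT1, the unadjusted p was under 0.05 in all 14, and the adjusted p ran from 0.0589 to 0.512.

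BMPR1A is the type I receptor through which BMP2 and BMP4 signal in the gut epithelium. Bmpr1a (ENSMUSG00000021796, chromosome 14, 34410734 to 34503341, minus strand) was at 1678, 1645 and 1663 in cKO1, cKO2 and cKO3 and at 1689, 1595 and 1399 in WT1, WT2 and WT3. The cKO libraries lay close to each other and inside the upper part of the WT range. The log2 fold change was 0.095 (SE 0.089, 95% confidence interval −0.11 to 0.30, adjusted p = 0.640 by limma), which was 0.018 without WT3 and 0.15 without WT1.

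The ID genes encode helix-loop-helix proteins that lack a DNA-binding region and hold E proteins away from DNA. Id1 (ENSMUSG00000042745, chromosome 2, 152736251 to 152737410, plus strand) was at 2809.5, 4011 and 3417 in cKO1, cKO2 and cKO3 and at 2774, 3518.5 and 3127 in WT1, WT2 and WT3. Id3 (ENSMUSG00000007872, chromosome 4, 136143497 to 136145755, plus strand) was at 1092, 1159 and 918 in cKO and at 941, 1066 and 1088 in WT, in the same order of libraries. The genotypes overlapped for both genes. Id2 (ENSMUSG00000020644, chromosome 12, 25093799 to 25097140, minus strand), which other signals also control, was at 288, 238 and 241 in cKO and at 300.2, 296 and 251 in WT, and overlapped as well. The log2 fold changes were 0.11 for Id1 (95% confidence interval −0.22 to 0.45, adjusted p = 0.740 by limma), −0.14 for Id2 (−0.47 to 0.18, adjusted p = 0.650) and 0.030 for Id3 (−0.23 to 0.29, adjusted p = 0.918). These intervals allow fold changes from 0.858 to 1.36 for Id1, from 0.724 to 1.13 for Id2 and from 0.855 to 1.22 for Id3. Id2 was −0.23 without cKO1 and −0.094 without cKO2. The sign for Id1 turned without cKO2 (−0.012; 0.24 without cKO1), and that for Id3 turned without cKO2 (−0.041), without WT1 (−0.035) and with libraries weighted by their fit to the model (−0.12), and was 0.0022 without cKO1. In cKO1, the library with the highest Grem1, Id1 was the lowest of the cKO libraries but above WT1.

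In order of level per kb, Id1 stood far above the other members in both genotypes, at 2942 ± 518 in cKO and 2707 ± 321 in WT (SD, n = 3), followed by Id3 at 590 ± 69.3 and 576 ± 44.3. After these came, in WT, Bmp2, Bmpr1a, Bmp4, Id2, Grem1, Bmpr2, Bmp5 and Bmp7, and neighbours in this order whose ranges overlapped were Bmp2 and Bmpr1a, Bmp4 and Id2, Bmpr2 and Bmp5, and Bmp5 and Bmp7. Grem1 was seventh by level in WT, at 81.9 ± 14.1 per kb. In cKO it was the third, at 276 ± 220 per kb, but its range there overlapped with those of Id3 above it and Bmpr1a below it. The other neighbours that overlapped in cKO were Bmpr1a and Bmp2, Bmp2 and Bmp4, Bmp5 and Bmpr2, and Bmpr2 and Bmp7. The order below Id1 rests on the gene lengths, which ran from 1160 bases for Id1 to 17983 for Bmpr2. By mean count over all libraries Id1 (3276) was also highest, but Bmpr2 (1055) was above Bmp2 (895) and Grem1 (742).

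The members that lay above WT in all cKO libraries correlated with each other across libraries. As they share that difference between the genotypes, a positive r was partly fixed in advance. Over the 6 libraries, which share genotype and tissue makeup, log2 values of Grem1 and Bmp7 correlated at r = 0.99 (Spearman's rho 0.943), and those of Grem1 and Bmpr2 at r = 0.92 with the same rank order (rho 1). Without cKO1 and cKO3, the libraries farthest from the median of Grem1, r was 0.741 with Bmp7 and 0.967 with Bmpr2. These values rest on cKO2 and the WT libraries alone. Bmp4 and Bmp5 correlated at r = 0.946 (rho 0.886), and at 0.809 without cKO2 and WT2. Grem1 and Bmp2 had r = −0.718 (rho −0.543), but 0.737 without cKO1 and cKO3, so that their opposite course rests on those libraries. Of 10674 protein-coding genes outside the lists with a mean of at least 100, those closest to Grem1 were Ptprr (r = 0.998), a receptor tyrosine phosphatase, and Thbs1 (r = 0.997), which encodes the matrix protein thrombospondin 1. Those closest to Bmp7 were Igfbp5 (r = 0.995), an IGF-binding protein, and P3h1 (r = 0.995), a collagen prolyl hydroxylase. For Bmp2 they were Slc20a1 (r = 0.997), a phosphate transporter, and Mfsd5 (r = 0.991). These genes were picked for a high r among so many over only 6 libraries, and how high r runs for other genes was not tested.

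Of 52 other genes of the pathway, 45 were listed and 39 tested, and 0 had an adjusted p under 0.05. At an unadjusted p under 0.05, 3 were higher and 2 were lower, out of 23 with a positive and 16 with a negative log2 fold change, and their median log2 fold change was 0.044. Of all genes tested, 14.0% had an unadjusted p under 0.05 in either direction.

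The other antagonists and BMP-binding proteins had 12 genes tested, of which 10 had a positive log2 fold change and 1, Fstl1, an unadjusted p under 0.05. Fstl1 encodes follistatin-like 1, a secreted glycoprotein of mesenchymal cells that can bind BMP4. It was at 2269, 939 and 1111 in cKO1, cKO2 and cKO3 and at 866, 499 and 618 in WT1, WT2 and WT3. The cKO libraries were all above the WT libraries and stood in the same order as for Grem1, with a log2 fold change of 1.05 (SE 0.38, adjusted p = 0.331 by limma) that was 0.66 without cKO1. The most abundant of this list per kb, Twsg1, encoding a chordin-binding modulator of BMPs, had a log2 fold change of 0.026 (adjusted p = 0.902), which was −0.0022 without cKO1 and −0.024 without WT3. Noggin (Nog) was below the filter, at 0 to 10.9 normalized counts.

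Of the other ligands 5 were tested. Gdf10, encoding BMP3B, was at 5.75, 0 and 5.16 in cKO1, cKO2 and cKO3 and at 15.8, 35.1 and 8.99 in WT1, WT2 and WT3. These counts were low in all libraries but did not overlap, with a log2 fold change of −2.40 (SE 0.85, adjusted p = 0.310 by limma) that was −1.50 without cKO2 and −1.47 with a pseudocount of 5. Bmp8a, the most abundant of these ligands per kb, had a log2 fold change of −0.32 (SE 0.18, adjusted p = 0.448). Of the other receptors and coreceptors 7 were tested and 0 had an unadjusted p under 0.05. The most abundant of them, the coreceptor gene Rgmb, was at 830.1, 1305 and 1017 in cKO and at 1126, 1535 and 1368 in WT, a log2 fold change of −0.37 (SE 0.18, adjusted p = 0.409) that was −0.21 without cKO1.

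The SMADs and their regulators had 8 genes tested. Smurf2, encoding an E3 ubiquitin ligase of the same family as NEDD4L that targets SMADs and their receptors, was at 1287, 1244 and 1106 in cKO1, cKO2 and cKO3 and at 975, 1054 and 1004 in WT1, WT2 and WT3. All cKO libraries were above all WT libraries, by a small step, with a log2 fold change of 0.26 (SE 0.088, unadjusted p = 0.0185, adjusted p = 0.301 by limma). Smad4, the shared partner of the receptor SMADs and the most abundant of this list per kb, had a log2 fold change of 0.30 (SE 0.18, adjusted p = 0.469), which was 0.14 without cKO1, 0.47 without cKO2 and 0.18 without WT1, and overlapped between the genotypes. The inhibitory SMAD genes Smad6 and Smad7, themselves BMP targets, overlapped too, with log2 fold changes of −0.38 and 0.044.

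Of the other targets 4 were tested, and Hes1 had the smallest p of all genes in these lists. Hes1, a transcriptional repressor best known as a Notch target, was at 688, 679 and 701 in cKO1, cKO2 and cKO3 and at 977, 1059 and 1068 in WT1, WT2 and WT3. The libraries of each genotype lay close together and the genotypes were clearly apart, with a log2 fold change of −0.58 (SE 0.080, 95% confidence interval −0.77 to −0.40). Its unadjusted p of 8.62e-05 was the 11th smallest of all genes tested, and its adjusted p was 0.116 by limma. The adjusted p was 0.0482 with no filter on low values, 0.00975 with weighted libraries and 0.04999 without cKO2, the settings under which it fell below the threshold. It was highest, at 0.487, without cKO3. Of the E proteins that ID proteins bind, Tcf4 was at 1467, 1164 and 1259 in cKO and at 1032, 974 and 1002 in WT, a log2 fold change of 0.36 (SE 0.10, adjusted p = 0.248 by limma), with no overlap between the genotypes. Its adjusted p was 0.0454 with weighted libraries and 0.512 without WT2. Tcf3, the most abundant E protein gene per kb, had a log2 fold change of −0.055 (adjusted p = 0.792 by limma), which was 0.0058 without cKO3. Its mean count over all libraries was 1125, against 1150 for Tcf4 and 1210 for Tcf12, so its rank rests on the gene lengths.

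**Figure D3:**
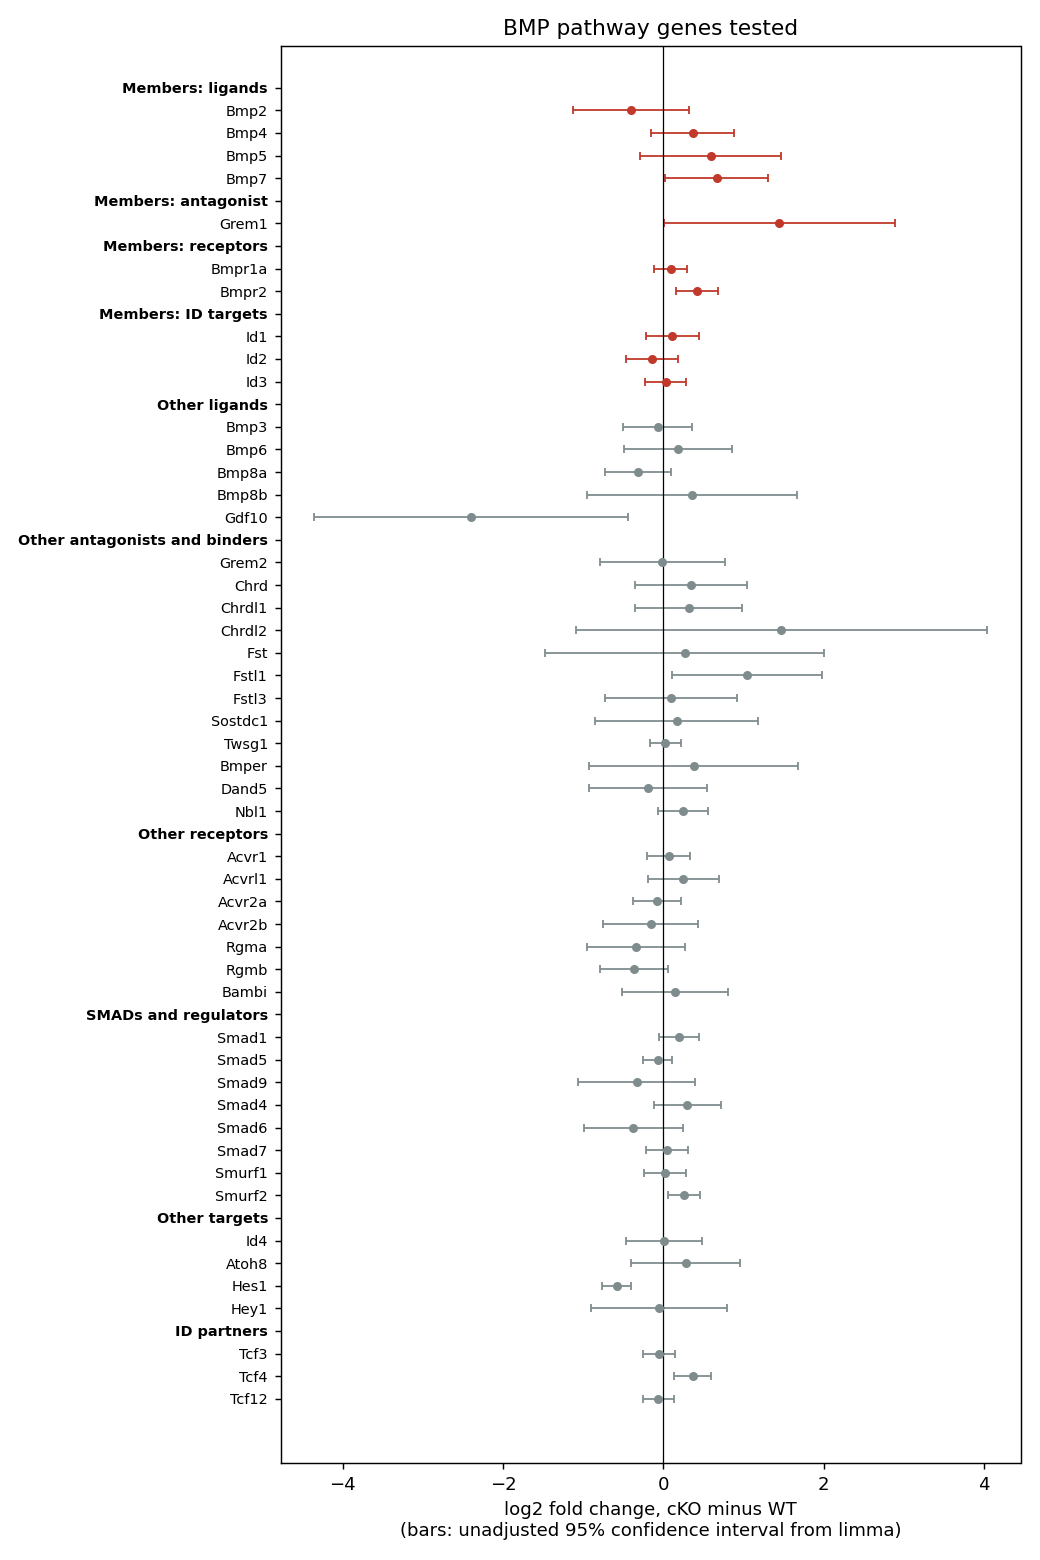
log2 fold change (cKO minus WT, horizontal axis) of each BMP pathway gene tested, with its unadjusted 95% confidence interval from limma, for the 10 members (red) and the other pathway genes (grey), grouped by role. The intervals of Bmp7, Grem1 and Bmpr2 lie just above or above 0 and those of the ID genes span 0, while Hes1, at −0.58, has a narrow interval below 0.

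Of the markers of other cells in the tissue, the summed fibroblast list separated the genotypes as Grem1 did. In such bulk samples, fewer cells of a type and less RNA per cell cannot be told apart. All 8 fibroblast markers (Col1a1, Col1a2, Col3a1, Dcn, Lum, Pdgfra, Col6a1 and Col6a2) had a positive log2 fold change. Of them 4 were higher at an unadjusted p under 0.05, against 6.91% of all genes tested, and 0 passed the adjusted threshold. The 8 markers summed to 48315, 25857 and 26360 in cKO1, cKO2 and cKO3 and to 22187, 13135 and 16792 in WT1, WT2 and WT3. Every cKO sum was above every WT sum, and cKO1 was highest. Only Col1a1, Col1a2 and Col3a1 did not overlap between the genotypes, and these 3 genes were most of the sum in every library. As a percentage of this sum, Grem1 was 4.50%, 1.66% and 3.15% in cKO and 1.81%, 2.54% and 1.69% in WT, and the genotypes overlapped. The percentages of Bmp4, Bmp5 and Bmp7 overlapped too, and that of Bmpr2 was lower in every cKO library (2.87% to 4.33%) than in every WT library (4.43% to 6.85%). The count of Bmpr2 itself was higher in every cKO library, but the fibroblast sum differed more (mean 33510 in cKO and 17371 in WT). The 7 endothelial markers (Pecam1, Cdh5, Kdr, Cldn5, Vwf, Tek and Emcn) had 5 positive and 2 negative log2 fold changes. Of them 1 was higher at an unadjusted p under 0.05, and 0 passed the adjusted threshold. They summed to 3602, 2269 and 2175 in cKO1, cKO2 and cKO3 and to 2235, 1500 and 2127 in WT1, WT2 and WT3. WT1 was above cKO3, and Bmpr2 was not set against this sum. The 5 crypt-base mesenchyme markers (Cd81, Ackr4, Rspo3, Cd34 and Pi16), which mark cells known to make gremlin 1, had 0 genes at an unadjusted p under 0.05. They summed to 2346 to 2743 in cKO and 2258 to 2712 in WT, but most of that sum was Cd81 (log2 fold change −0.074). Cd34, Rspo3 and Pi16 had log2 fold changes of 0.65, 0.85 and 0.96, Ackr4 had −0.23, and the genotypes overlapped for all 5. The 5 markers of the mesenchyme just beneath the epithelium (Foxl1, F3, Pdgfra, Sox6 and Wnt5a) all had a positive log2 fold change, with a median of 0.49, and 1 of them, Wnt5a, had an unadjusted p under 0.05 (adjusted p = 0.301 by limma). Their summed count was 3479, 2413 and 2293 in cKO1, cKO2 and cKO3 and 2671, 1469 and 1595 in WT1, WT2 and WT3, and overlapped. As for Bmp4 and Bmp5, WT2 was the lowest library. The part of cell makeup in the differences of the members was not tested beyond these ratios.

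Neutrophil markers stood out in cKO1. Of 7, 6 had a positive log2 fold change, 3 of them at an unadjusted p under 0.05, and the seventh, Ly6g, had a negative one at an unadjusted p under 0.05, while 0 passed the adjusted threshold. S100a9, a calcium-binding protein of neutrophils, was at 2680.1, 27.6 and 348 in cKO1, cKO2 and cKO3 and at 15.8, 10.8 and 14.98 in WT1, WT2 and WT3. The order of the cKO libraries was that of Grem1 and Bmp7. The summed count of the list was 9641 in cKO1 and 2970 to 3235 in the other 5 libraries, in which Ly6g was most of the sum.

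Muscle and surface markers differed between libraries in other ways. The 8 smooth muscle markers summed to 5587 to 11126 in cKO and to 4975 to 21522 in WT, with WT2 highest. Of them 1, Myocd, was at an unadjusted p under 0.05. As muscle layers also make gremlin 1, Grem1 was set against this sum, of which it was 38.9%, 5.47% and 7.46% in cKO and 4.39%, 1.55% and 5.72% in WT, with cKO2 below WT3. The 8 surface colonocyte markers, from cells known to make BMP2, summed to 45996, 75347 and 46729 in cKO1, cKO2 and cKO3 and 80719, 74348 and 60507 in WT1, WT2 and WT3. This is the order of Bmp2 among the libraries in that cKO1 was lowest and WT1 highest, and Bmp2 as a percentage of this sum was 1.38% ± 0.169 in cKO and 1.40% ± 0.289 in WT (SD, n = 3). Bmp2 as a percentage of the summed epithelial markers was 0.303% ± 0.0815 in cKO and 0.382% ± 0.1045 in WT (SD, n = 3). Both percentages overlapped between the genotypes. Of the 3 distal colon genes tested, Hoxd13 was at 17.3, 334 and 651 in cKO1, cKO2 and cKO3 and at 213, 195 and 78.9 in WT1, WT2 and WT3, so that cKO1 was lowest. Hoxb13 was also lowest in cKO1, at 2279 against 3694 to 4513 in the other 5 libraries. Hoxa13 was at 809.98, 869 and 762 in cKO and at 1067, 896 and 926 in WT, with no overlap (unadjusted p = 0.0418, adjusted p = 0.344 by limma). Their part in the results was not tested.

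**Figure D4:**
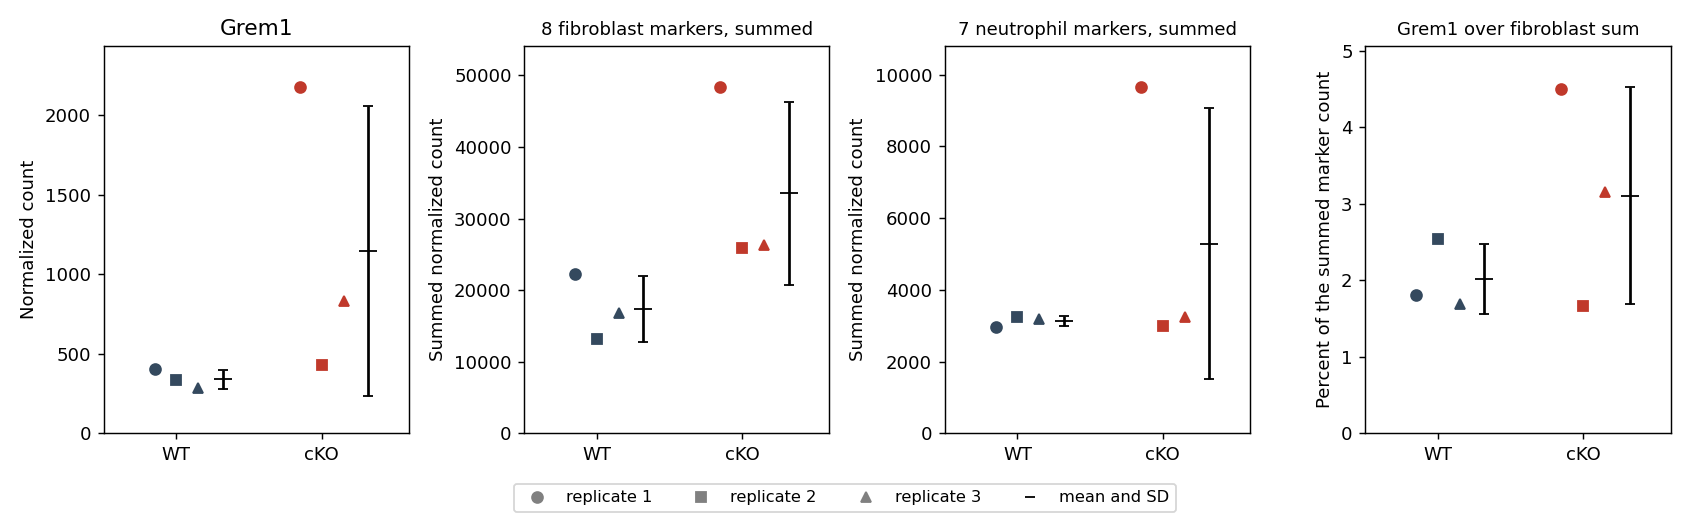
Grem1, the summed fibroblast markers, the summed neutrophil markers (normalized counts) and Grem1 as a percentage of the summed fibroblast markers in each library, with the mean and SD of each genotype (n = 3). cKO1 is the highest library in all 4 panels, at 2174, 48315, 9641 and 4.50%, and in the last panel cKO2 (1.66%) lies below all WT libraries.

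**Figure D5:**
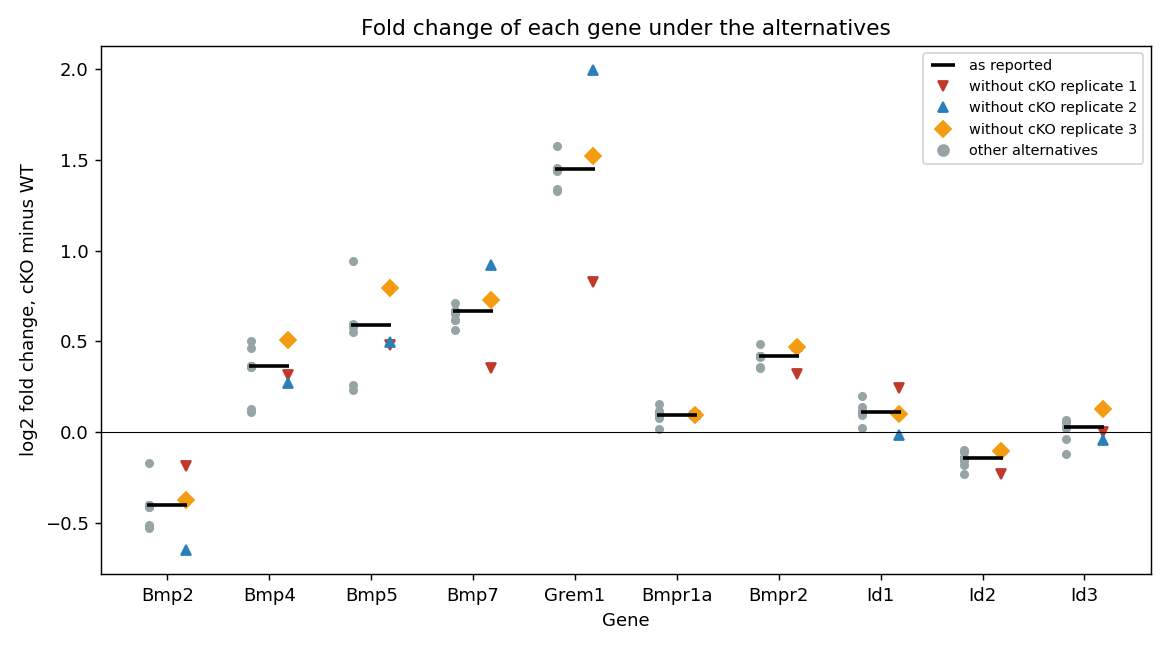
log2 fold change (cKO minus WT) of each member as reported (black line), without each cKO library in turn (coloured symbols) and under the other alternatives (grey points). Grem1 runs from 0.83 without cKO1 to 1.99 without cKO2 and Bmpr2 from 0.32 to 0.49, while Id1 and Id3 fall on both sides of 0.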

How the data were processed

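RNA was extracted with TRIzol from colonic tissue and libraries were made with the NEBNext Ultra RNA kit. The submitters' processing notes name HISAT2 2.0.5, featureCounts 1.5.0-p3 and the genome build hg18, a human build. The coordinates in the table are those of mouse, and 97.0% of genes had coordinates identical to GENCODE M21 on GRCm38. The authors deposited normalized counts, a signal in which the reads of a gene are scaled by 1 size factor for each library. Their genotype means, fold changes and p-values in the same table were not used. The treatment of strand and of shared reads is not given in the sources used here.

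Values were taken as log2(normalized count + 1), which understates the fold changes of genes with low counts. The 16246 genes whose mean reached 10 were fitted in limma 3.58.1 (lmFit, then eBayes with trend and robust, in R 4.3.3), p-values were adjusted over all of them by Benjamini-Hochberg, and the threshold was 0.05. Scripts were tested on simulated data. The labels give 3 littermate mice per genotype without further detail, so the p-values measure the spread between these samples. Members, gene lists and the ratios to marker sums were chosen with earlier results of these data known. Genes named are the members, the other pathway genes at an unadjusted p under 0.05 or most abundant per kb in their list, and 2 correlated genes per member. Smad6, Smad7, Nog, S100a9, Ly6g, Myocd, Wnt5a, the distal colon genes, single mesenchyme markers and Xist were chosen after their values were seen. Promoters are from RefSeq (GRCm38.p6). Same-numbered mice did not deviate together (r = −0.029, −0.090 and −0.056), so replicate numbers were not treated as pairs. Python 3.11.15 and matplotlib 3.10.9 drew the figures.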

Additional observations from a re-analysis of the deposited data

How the results depend on the processing

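The count of members called at the adjusted threshold was 0 in all 14 alternatives. Over all genes, the calls were 7 higher and 23 lower with no filter on low values and 262 higher and 369 lower with libraries weighted by their fit to the model, which also gave 2084 higher and 2122 lower at an unadjusted p under 0.05 (as reported, 0, 0, 1122 and 1151). Leaving out 1 library at a time gave 0 to 70 higher and 0 to 52 lower calls, with the most without cKO2, and 793 to 1451 higher and 740 to 1424 lower genes at the unadjusted threshold. Members past the unadjusted threshold numbered 1 to 3 higher and 0 to 1 lower, the 1 being Bmp2 without cKO2, and 1 higher after quantile normalization. The log2 ratio of Grem1 to the summed ligands differed by 0.75 to 2.07, and by 1.53 with Bmp2 and Bmp4 alone. The sign turned for Id1 (−0.012 without cKO2), Id3 (−0.12 with weighted libraries, −0.041 without cKO2 and −0.035 without WT1), Twsg1 (−0.0022 without cKO1 and −0.024 without WT3) and Tcf3 (0.0058 without cKO3). Leaving out 1 library at a time, these genes ran from −0.012 to 0.24, from −0.041 to 0.13, from −0.024 to 0.065 and from −0.10 to 0.0058. The cause was not tested. With the replicate number as a block, 1204 genes were higher and 1052 lower at the unadjusted threshold, 0 were called and 3 members were higher. Count models on recovered reads were not run, so the fold changes and their p-values rest on limma alone. With 3 mice a genotype, the interval of Grem1 spans fold changes from 1.00 to 7.40, and leaving a library out keeps only 2 mice in its genotype.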

Other observations

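The genes whose log2 values followed the other members most closely over the 6 libraries are given as a description, with no test. For Bmp4 they were Cd84 (r = 0.975), a receptor of leukocytes, and Ctsh (r = 0.974), a lysosomal protease. For Bmp5 they were F13a1 (r = 0.991), a transglutaminase subunit that macrophages also make, and C5ar1 (r = 0.986), the receptor of complement C5a. Bmpr1a was closest to Pde12 (r = 0.997) and Mycbp (r = 0.994), and Bmpr2 to Trim3 (r = 0.990) and Mier1 (r = 0.989). Id1 was closest to Ahdc1 and Ocel1 (r = 0.993 each), Id2 to Keap1 (r = 0.994) and Haus3 (r = 0.991), and Id3 to Srpr (r = 0.985) and Taldo1 (r = 0.981). Each was picked for a high r among 10674 genes over 6 libraries, and how high r runs for other genes was not tested.

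The 8 macrophage markers all had a positive log2 fold change, 1 of them, Cd68, at an unadjusted p under 0.05, and 0 passed the adjusted threshold. Their summed count was 5719, 7447 and 6560 in cKO1, cKO2 and cKO3 and 6999.8, 4459 and 5859 in WT1, WT2 and WT3. As for Bmp4 and Bmp5, cKO2 was highest or near it and WT2 was lowest. Of 10 proliferation markers, 8 had a negative and 2 a positive log2 fold change. The replication genes Pcna, Mcm2, Mcm3, Mcm5 and Mcm6 were lower in every cKO library than in every WT library at an unadjusted p under 0.05. Their adjusted p-values by limma were 0.137 to 0.169, and Ccnb1, a cyclin of mitosis, was higher (adjusted p = 0.293). Of all genes tested, 10.9% were lower without overlap. At an unadjusted p under 0.05, 7.08% of all genes tested were lower and 6.91% were higher.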
